A study of Homo sapiens with 6 samples.

Results

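The neurotrophin system was examined by RNA sequencing of NCI-H1703 cells, an established line that the labels describe as lung squamous cell carcinoma. The 6 genes described are NGFR, BDNF, NTRK2, NTRK3, SORT1 and MAGED1, out of 17534 genes in the deposited count table, and all 6 were found there by symbol. There were 3 control libraries, whose genotype label is Sh-NC and whose cells the series title calls wild-type, and 3 libraries labelled Sh-PPM1G, from cells with a short hairpin RNA (shRNA) against the phosphatase gene PPM1G. The number and sequence of the hairpins, whether each culture was a clone or a pool, and the time after delivery are not stated in the labels. The 6 genes were chosen with the results of this comparison known, so their levels and fold changes are a description and carry no test.

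Neurotrophins are secreted growth factors known above all from neurons, where they promote survival and outgrowth. Each mature neurotrophin binds a Trk receptor tyrosine kinase, which signals through ERK, phosphoinositide 3-kinase and phospholipase C gamma. All of them, and their uncleaved precursors, also bind p75NTR, the product of NGFR. That receptor belongs to the tumour necrosis factor (TNF) receptor superfamily, has a death domain in place of a kinase, and can pair with sortilin or signal through adaptors such as the MAGED1 product. In airway epithelium NGFR is known as a marker of basal cells.

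Library totals ranged from 31337553 to 35838246 counts. The PPM1G transcript itself was at 321 ± 13 CPM in the control and 188 ± 6.1 CPM in the PPM1G shRNA libraries (mean ± SD, n = 3 each), and it fell by 0.77 on the log2 scale (SE 0.03, adjusted p = 3.3e-20 in edgeR's quasi-likelihood test). CPM, the level used except where FPKM is named, is the count as a share of the library total after TMM scaling. That scaling corrects for differences in composition. Of the squamous and basal markers, 3 of the 11 in the table passed the filter on low counts. All 3 fell, as did 41.3% of all genes tested. SOX2 went from 22.8 ± 1.5 to 10.7 ± 0.62 CPM, TP63 from 1.54 ± 0.35 to 0.836 ± 0.25 CPM and PERP from 114.6 ± 3.3 to 77.2 ± 2.7 CPM. The keratin gene KRT14 was at 0.039 ± 0.017 CPM in the controls, and the summed level of the list was 136 to 145 CPM in the controls and 86.2 to 92 CPM with PPM1G shRNA. Of 6 general epithelial markers, 5 passed the filter, with 2 rises and 1 fall. KRT7 rose from 1.53 to 10.7 CPM and KRT18 from 98.8 to 110.4 CPM. KRT8 fell from 214.3 to 189.2 CPM, and EPCAM and CDH1 did not pass the test. Of 5 endothelial markers, 3 passed the filter. PECAM1 fell from 5.31 to 1.075 CPM, while VWF rose from 0.524 to 2.58 CPM and KDR from 0.126 to 0.429 CPM. Markers of Schwann cells and neurons, which normally carry NGFR, were largely near 0, with SOX10 at 0.078 ± 0.089 CPM in the controls and 0.027 CPM in the PPM1G shRNA libraries, and TFAP2B, CHGA and NEUROD1 at 0 counts in all 6. The summed level of the 7 measured Schwann cell and neural crest markers was 141 to 150 CPM in the controls and 100 to 104 CPM in the PPM1G shRNA libraries, nearly all of it PMP22, and that of the 6 neuronal markers was 53.1 to 58.6 and 87.6 to 91.8 CPM, nearly all of it TUBB3. The 9 fibroblast markers summed to 3637 to 3757 CPM in the controls and 2339 to 2376 CPM with PPM1G shRNA. Of the 5 that passed the filter, 2 rose and 2 fell. VIM, which led the sum, fell from 3379 to 1839 CPM and COL1A2 from 6.42 to 3.96 CPM. COL1A1 rose from 154.4 to 343.9 CPM and PDGFRB from 3.95 to 9.48 CPM. THY1, at 160.5 and 155.7 CPM, did not pass the test. Blood cell markers summed to 1245 to 1301 and 551 to 584 CPM, nearly all of it CD68, which fell from 1266 to 565.7 CPM, while ITGAM rose from 0.029 to 0.444 CPM. The part of these marker differences in the results was not tested. Fewer cells of a kind and less RNA per cell cannot be told apart in such bulk libraries.

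NGFR was the member with the widest difference between the groups. Its product, p75NTR, is the low-affinity receptor shared by all neurotrophins. The gene NGFR (Entrez 4804) spans positions 49495293 to 49515008 of chromosome 17 in GRCh38, the build of all positions given. Its counts were 54, 34 and 35 in the controls, in the order of their numbers, whereas knockdown libraries gave 814, 912 and 915. All 3 control libraries were low and all 3 PPM1G shRNA libraries high, with a wide gap between the groups. Scaled levels of NGFR were 1.58, 0.991 and 1.02 CPM without and 25.2, 24.6 and 24.6 CPM with the PPM1G hairpin, or 1.19 ± 0.33 against 24.8 ± 0.30 CPM (SD, n = 3 each). The fitted log2 fold change of NGFR was 4.37 (SE 0.12), a 20.7-fold higher level, which ranked 14th among rises over the 13060 genes tested. The counting interval of the ratio of the summed counts, 123 against 2641, ran from 17.3 to 25.1 (exact 95% interval, which covers counting error only).

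In the annotation NGFR overlaps the antisense long non-coding RNA gene NGFR-AS1 and the microRNA gene MIR6165. Neither has a count analysed here, and without a stated strand setting their reads cannot be separated from those of NGFR. Of the nearest protein-coding genes on each side, 1 could be tested. PHB1, which encodes a prohibitin of the inner mitochondrial membrane and lies 80411 bp away, fell by 1.20 on the log2 scale (SE 0.03, adjusted p = 5.5e-26, edgeR). NXPH3, which encodes a neurexophilin and lies 60863 bp away on the other side, was too low to test, with 25 counts over the control and 21 over the PPM1G shRNA libraries.

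**Figure D1:**
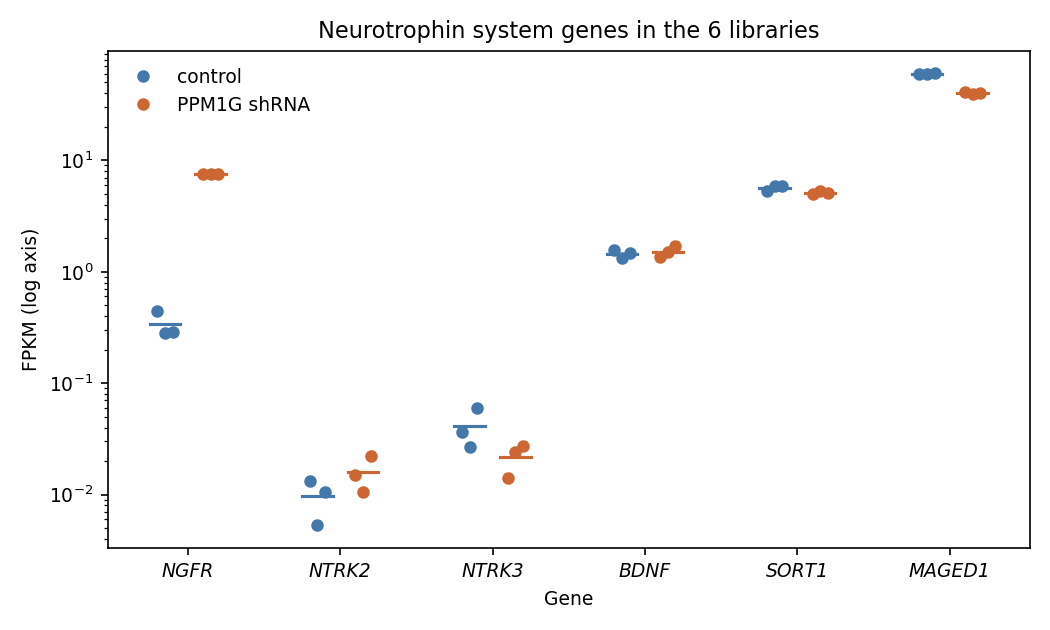
FPKM of the 6 neurotrophin system genes in each library on a log axis, with control libraries in blue and PPM1G shRNA libraries in orange. Points are libraries and bars are group means over 3 libraries. NGFR sits at 0.281 to 0.446 FPKM in the controls and at 7.49 to 7.62 FPKM with PPM1G shRNA, whereas the BDNF points of the groups overlap.

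The Trk receptor genes NTRK2 and NTRK3 were at the lower edge of detection in both groups. NTRK2 encodes TrkB, the receptor for BDNF and neurotrophin-4, and NTRK3 encodes TrkC, the receptor for neurotrophin-3. NTRK2 (Entrez 4915; chromosome 9, positions 84668522 to 85027054) had 10, 4 and 8 counts in the control libraries and 10, 8 and 17 counts in the PPM1G shRNA libraries. The groups overlapped, at 0.214 ± 0.089 and 0.328 ± 0.12 CPM (SD, n = 3 each). The ratio of the summed NTRK2 counts, 35 against 22, was 1.54 with an exact 95% counting interval of 0.878 to 2.75, so a difference was not detectable at this depth. Its fitted log2 fold change was 0.61 (SE 0.51).

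NTRK3 (Entrez 4916; chromosome 15, positions 87859751 to 88256739) had 41, 30 and 67 counts in the control libraries and 14, 27 and 31 counts in the PPM1G shRNA libraries. After scaling, the lowest control library, at 0.874 CPM, stood just above the highest PPM1G shRNA library, at 0.835 CPM. The means were 1.34 ± 0.55 and 0.666 ± 0.21 CPM (SD, n = 3 each), with a log2 fold change of −0.99 (SE 0.33). Control library 3 was high for NTRK3, and without it the log2 fold change was −0.622 (SE 0.36) and the gene no longer passed the threshold used for the other genes. NTRK3 overlaps the antisense gene NTRK3-AS1, the microRNA gene MIR11181 and the pseudogene MED28P6, and NTRK2 overlaps an uncharacterised long non-coding RNA gene.

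BDNF encodes brain-derived neurotrophic factor, a ligand of TrkB and p75NTR. BDNF (Entrez 627; chromosome 11, positions 27654893 to 27722030) had 471, 394 and 444 counts in the control libraries and 360, 448 and 514 counts in the PPM1G shRNA libraries. In CPM these were 13.7, 11.5 and 12.9 against 11.1, 12.1 and 13.8, so the groups overlapped. The means were 12.7 ± 1.1 and 12.4 ± 1.4 CPM (SD, n = 3 each), and the log2 fold change was −0.04 (SE 0.09). Its sign depended on the scaling, since with plain library totals the value was 0.0629, and the counting interval of the ratio, 0.905 to 1.06, included no change. BDNF overlaps the antisense gene BDNF-AS.

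The ligand genes NTF3 and NTF4 were at or near 0. NTF3, which encodes neurotrophin-3, had 1 count in PPM1G shRNA library 2 and 0 in every other library, which allows a level of up to 0.0808 to 0.0927 CPM in those libraries (3 counts, for counting error only). NTF4, which encodes neurotrophin-4, had 1 count summed over the controls and 5 with PPM1G shRNA, a 4.84-fold ratio with a counting interval of 0.541 to 229.

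SORT1 and MAGED1 had the most counts of the members in both groups, and both stood lower in every PPM1G shRNA library. SORT1 encodes sortilin, a sorting receptor that binds neurotrophin precursors together with p75NTR. SORT1 (Entrez 6272; chromosome 1, positions 109309575 to 109397918) had 1518, 1651 and 1665 counts in the control libraries and 1244, 1500 and 1472 in the PPM1G shRNA libraries. In CPM these were 44.3, 48.1 and 48.3 against 38.5, 40.5 and 39.6, a narrow gap between groups that did not overlap. The log2 fold change was −0.25 (SE 0.05), or 0.843 of the control level. With plain library totals it was −0.146 (SE 0.05), and that scaling moved the median over all genes by a like amount, from 0.015 to 0.115.

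MAGED1, also known as NRAGE, encodes a MAGE family protein that binds the intracellular part of p75NTR and takes part in its death signalling. MAGED1 (Entrez 9500; chromosome X, positions 51803076 to 51902354) had 8130, 8075 and 8272 counts in the control libraries and 4960, 5367 and 5502 counts in the PPM1G shRNA libraries. In CPM these were 237, 235 and 240 against 153, 145 and 148. The groups were far apart relative to their spread, with means of 237 ± 2.4 and 149 ± 4.2 CPM (SD, n = 3 each). The log2 fold change was −0.67 (SE 0.03), or 0.626 of the control level.

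The 250 bases before annotated starts of these 2 genes are shown because they were the members measured with the best precision and stood lower together. Entries were found for 5 of the 6 members, from RefSeq on GRCh38.p14, and NGFR had none. Sequences run 5′ to 3′ on the strand of the gene, and capitals mark matches on either strand to 5 motifs: the GC box GGGCGG, the cAMP response element TGACGTCA, the AP-1 site TGANTCA, the CHOP-ATF4 composite site TGATGNAA and the E-box CACGTG.
MAGED1 upstream start (chrX:51802826-51803075, plus strand): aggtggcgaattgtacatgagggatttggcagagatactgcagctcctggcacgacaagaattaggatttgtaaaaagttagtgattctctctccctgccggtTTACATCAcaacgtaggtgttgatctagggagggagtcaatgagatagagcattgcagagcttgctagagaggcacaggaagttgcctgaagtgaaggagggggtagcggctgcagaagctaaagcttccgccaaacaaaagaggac
MAGED1 downstream start (chrX:51893373-51893622, plus strand): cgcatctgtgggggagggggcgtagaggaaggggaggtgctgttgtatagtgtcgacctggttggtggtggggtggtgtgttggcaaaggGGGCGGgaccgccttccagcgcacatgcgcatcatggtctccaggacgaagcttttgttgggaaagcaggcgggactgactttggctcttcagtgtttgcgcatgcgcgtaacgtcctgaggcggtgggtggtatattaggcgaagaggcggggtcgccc
SORT1 upstream start (chr1:109397919-109398168, minus strand): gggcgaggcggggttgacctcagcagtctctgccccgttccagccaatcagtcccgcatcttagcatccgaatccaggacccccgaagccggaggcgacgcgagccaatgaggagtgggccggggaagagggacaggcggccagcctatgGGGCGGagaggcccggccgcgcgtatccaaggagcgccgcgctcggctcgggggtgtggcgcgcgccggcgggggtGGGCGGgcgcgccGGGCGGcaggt
The upstream MAGED1 window, with 48.8% G and C bases, held 1 match to the CHOP-ATF4 composite letters, which occur in 3.14% of the 35116 windows in the table. Motifs were searched only in the 250 bases before each start, and not in the bases after it. The downstream MAGED1 window (61.2% G and C) held 1 GC box and the SORT1 window (74.0% G and C) held 3, and 42.6% of all windows hold at least 1. A second annotated SORT1 start, not shown (window of 42.8% G and C), held none. None of the other motifs had a match in these 3 windows. A match is a string of letters and not a measured site, and the gene counts do not separate the starts of MAGED1 or of SORT1. SORT1 lies 1124 bp from PSMA5, a proteasome core subunit gene, which fell by 0.42 on the log2 scale (SE 0.04, adjusted p = 2.0e-10, edgeR).

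Levels were then compared between genes on the FPKM scale, which divides by 1 length per gene. In the control libraries the order was MAGED1 at 59.8 ± 0.52, SORT1 at 5.67 ± 0.28, BDNF at 1.45 ± 0.13, NGFR at 0.338 ± 0.093, NTRK3 at 0.041 ± 0.017 and NTRK2 at 0.0097 ± 0.0040 FPKM (SD, n = 3 each). No neighbours in that order overlapped in their libraries. In the PPM1G shRNA libraries NGFR, at 7.54 ± 0.074 FPKM, stood between MAGED1, at 40.2 ± 1.0 FPKM, and SORT1, at 5.13 ± 0.15 FPKM. The remaining order was BDNF at 1.52 ± 0.17, NTRK3 at 0.0219 ± 0.0069 and NTRK2 at 0.016 ± 0.0060 FPKM, and only NTRK3 and NTRK2 overlapped. The lengths behind these values were 21234 bp for NTRK2 and 31516 bp for NTRK3, longer than the longest GENCODE 29 transcripts of 8633 and 19984 bp, so their FPKM would be higher if 1 transcript were counted. The same holds for BDNF, with 8434 bp against 4766 bp, and its FPKM ratio to NGFR rests on that length. For SORT1 the length was 7985 bp against 7028 bp. The length used for NGFR, 3408 bp, was close to its longest transcript of 3417 bp.

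The nearest protein-coding genes of the other members moved both ways. Beside BDNF, LIN7C rose by 0.29 (SE 0.06) and KIF18A fell by 0.25 (SE 0.05). Beside NTRK2, AGTPBP1 rose by 0.57 (SE 0.04) and SLC28A3 did not pass (adjusted p = 0.15, edgeR). MRPL46, a mitochondrial ribosomal protein gene beside NTRK3, fell by 0.64 (SE 0.08). MAGED4B, a MAGE family gene 159473 bp from MAGED1, had 11, 11 and 12 counts in the control and 49, 30 and 10 in the PPM1G shRNA libraries. It rose by 1.36 (SE 0.47, adjusted p = 0.0099, edgeR), but PPM1G shRNA library 3 lay below every control count, and without library 1 the gene did not pass (log2 fold change 0.705, adjusted p = 0.194).

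The balance between receptors differed by group. NGFR made up 89.9%, 89.7% and 80.4% of the summed FPKM of NGFR, NTRK2 and NTRK3 in control libraries 1 to 3, and 99.6%, 99.5% and 99.3% in PPM1G shRNA libraries 1 to 3. By counts, which favour the long NTRK3, the NGFR shares were 51.4%, 50% and 31.8% against 97.1%, 96.3% and 95%. The FPKM ratio of NGFR to SORT1, the genes of the co-receptor pair, was 0.0603 ± 0.020 in the controls and 1.47 ± 0.056 with PPM1G shRNA (SD, n = 3 each). This ratio rests on the lengths used. In CPM, which uses no length, SORT1 stood above NGFR in both groups, at 39.5 against 24.8 CPM with PPM1G shRNA. The FPKM ratio of BDNF to NGFR was 4.44 ± 0.83 in the controls and 0.201 ± 0.024 with PPM1G shRNA, while BDNF itself overlapped between the groups. These ratios rest on the same NGFR values that led to its choice and carry no test.

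All 6 members passed edgeR's filter on low counts. With an adjusted p under 0.05 as the call, 1 member was called higher (NGFR) and 3 were called lower (NTRK3, SORT1 and MAGED1), where 82.9% of all 13060 genes tested were called, 41.5% as higher and 41.3% as lower. The groups' libraries did not overlap for the same 4 members, against 83.7% of all genes tested. The median log2 fold change was −0.14 over the members and 0.015 over all genes tested. Nothing is read from these counts, since the members were chosen on this comparison.

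Other genes of the system were taken from lists by role, written from textbook knowledge. Over these lists together 152 genes were in the table and 124 were tested, of which 52 rose and 45 fell, or 78.2% called against the 82.9% of all genes tested. Their median log2 fold change was 0.028. Of these, 18 rose and 20 fell by at least 2-fold, where 11.8% and 12.4% of all genes tested did so.

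**Figure D2:**
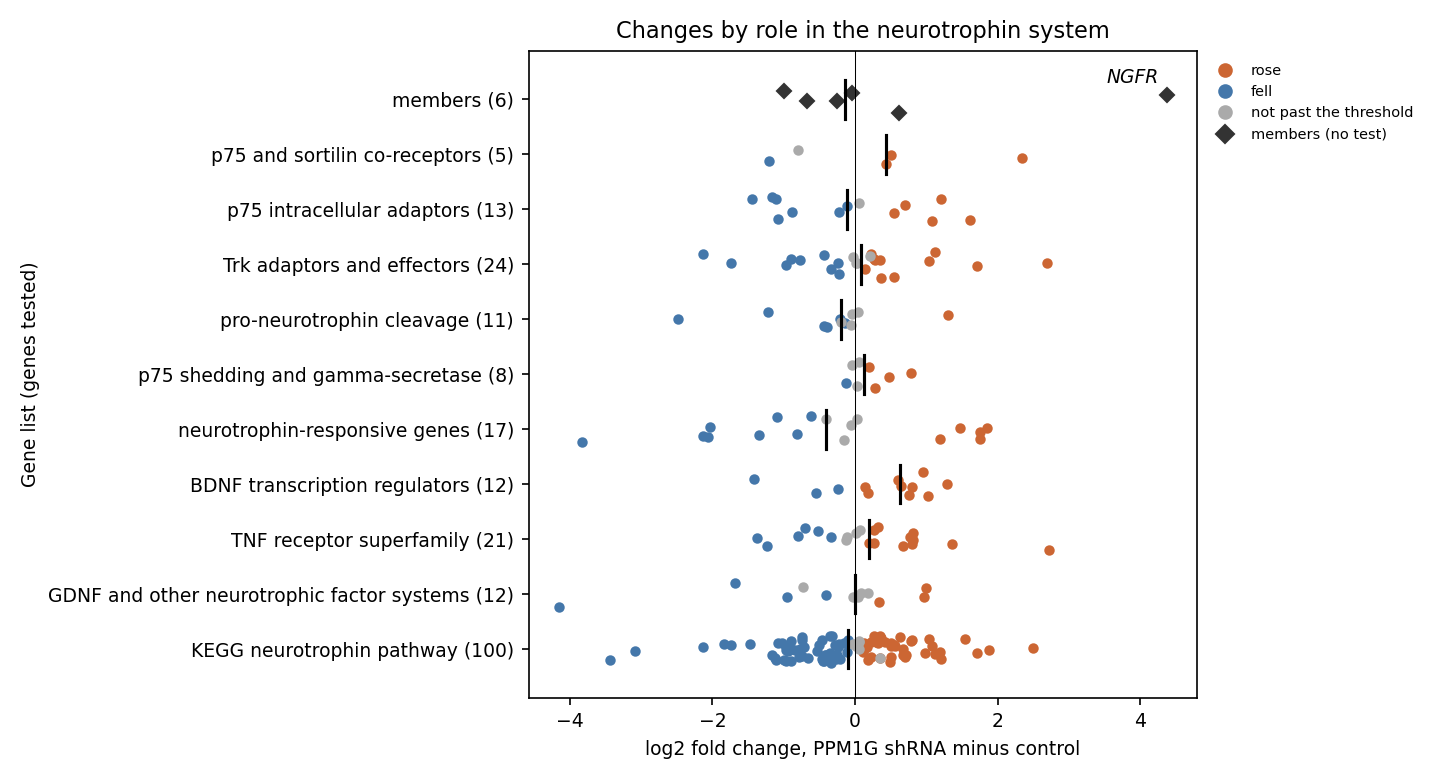
Log2 fold changes of the tested genes, PPM1G shRNA minus control, by role in the neurotrophin system. Each point is a gene (orange rose, blue fell, grey did not pass the test, black diamonds are the members, which carry no test), the vertical bars are list medians, and NGFR lies at 4.37, to the right of every other point drawn.

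Among co-receptors of p75NTR and the sortilin family, 3 rose and 1 fell of 5 tested. SORCS1, a neuronal sortilin-related receptor gene, had 15, 7 and 3 counts in the control and 37, 53 and 43 in the PPM1G shRNA libraries, and rose by 2.34 on the log2 scale (SE 0.40, adjusted p = 2.7e-06, edgeR). SORL1, which encodes a sorting receptor of the same family, fell from 20.4 ± 0.73 to 8.82 ± 0.89 CPM (log2 fold change −1.21, SE 0.09). The scaffold gene KIDINS220, whose product binds Trk receptors and p75NTR, rose from 95.2 ± 1.6 to 134.7 ± 3.0 CPM. RTN4, which encodes the ligand Nogo of the p75NTR and Nogo receptor complex, rose by 0.44 (SE 0.03). The Nogo receptor gene RTN4R, at 0.611 ± 0.10 and 0.359 CPM, did not pass (adjusted p = 0.082), but did without PPM1G shRNA library 1 (adjusted p = 0.012). LINGO1, SORCS2 and SORCS3 were too low to test.

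Adaptors that bind the intracellular part of p75NTR moved both ways, with 5 rises and 7 falls among 13 tested, or 6 and 5 with plain library totals. The scaffold gene SQSTM1, which encodes p62, was at 1019, 969 and 955 CPM in the controls and at 3011, 2965 and 2998 CPM with PPM1G shRNA, a rise of 1.61 (SE 0.03, adjusted p = 1.2e-31, edgeR). ZNF274, a zinc finger gene, and PRDM4, also known as SC1, rose by 1.21 (SE 0.04) and 1.08 (SE 0.04). MAGEH1, a relative of MAGED1, fell from 16.2 ± 1.4 to 5.96 ± 0.46 CPM. RHOA, the GTPase that p75NTR can activate, fell by 1.16 (SE 0.03), and ARHGDIA, the dissociation inhibitor that holds such GTPases inactive, fell by 1.11 (SE 0.03). BEX1 had 0 CPM in all libraries, and NDN and MAGEL2, further MAGE family genes, were too low to test.

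Of 24 Trk adaptor and effector genes tested, 11 rose and 9 fell. IRS2, an insulin receptor substrate that also couples to Trk signalling, rose from 59.5 ± 0.66 to 383.5 ± 3.8 CPM (log2 fold change 2.69, SE 0.03, adjusted p = 8.9e-35, edgeR). The SHC family, which docks on the activated Trk kinases, was divided. SHC3, its neuronal member, fell from 147.7 ± 4.1 to 33.8 ± 1.7 CPM and SHC4 from 1.40 ± 0.28 to 0.419 ± 0.13 CPM. SHC2, with 13 counts over the controls and 45 over the PPM1G shRNA libraries, rose by 1.72 (SE 0.54, adjusted p = 0.0042), and the widely expressed SHC1 fell by 0.22 (SE 0.04). FRS2, the docking protein gene of the sustained ERK branch, and RAPGEF1, its exchange factor for Rap1, rose by 1.12 (SE 0.05) and 1.04 (SE 0.03).

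Enzymes that cleave neurotrophin precursors included 1 rise and 6 falls among 11 tested, or 1 and 4 with plain library totals. The convertase genes FURIN and PCSK7 fell, with log2 fold changes of −0.39 (SE 0.04) and −0.43 (SE 0.05), from 105.5 ± 5.0 and 81.0 ± 3.8 CPM. PCSK1, a convertase of the regulated secretory pathway, rose from 0.554 ± 0.24 to 1.38 ± 0.23 CPM. MMP3 and MMP9, matrix metalloproteinases able to cleave the precursors outside the cell, fell from under 1 CPM, with log2 fold changes of −2.49 (SE 0.46) and −1.22 (SE 0.45), and MMP9 did not pass without PPM1G shRNA library 1 (adjusted p = 0.066) or 3 (adjusted p = 0.071). PLAT, which encodes tissue plasminogen activator, was at 122.5 ± 12 and 119.6 CPM and did not pass (adjusted p = 0.55).

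The proteases that release the ectodomain and then the intracellular domain of p75NTR had small changes, with 4 rises and 1 fall among 8 tested and no change of 2-fold. With plain library totals, and on both FPKM scales, the split was 6 rises and 0 falls. The ectodomain protease gene ADAM17 rose by 0.19 (SE 0.04) and ADAM10 fell by 0.12 (SE 0.03). Of the gamma-secretase genes, PSEN2 rose from 16.6 ± 0.93 to 28.7 ± 0.80 CPM, APH1B by 0.47 (SE 0.07) and NCSTN by 0.28 (SE 0.04), while APH1A and PSENEN did not pass.

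Genes known to respond to neurotrophin signalling moved both ways, with 5 rises and 8 falls among 17 tested and a median log2 fold change of −0.40. The ERK phosphatase gene DUSP6 had the widest fall, from 43.5 ± 1.4 to 3.09 ± 0.54 CPM. EGR1, FOSL1 and the urokinase receptor gene PLAUR fell, with log2 fold changes of −2.13 (SE 0.10), −2.07 (SE 0.04) and −2.03 (SE 0.04). KLF10, KLF4, NR4A3, JUNB and EGR2 rose, by 1.85 (SE 0.05), 1.75 (SE 0.05), 1.76 (SE 0.23), 1.48 (SE 0.04) and 1.20 (SE 0.16). VGF, a neuropeptide precursor gene, stood at 198.9 ± 1.0 and 190.7 CPM and did not pass (adjusted p = 0.065).

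Transcription regulators known to act on BDNF were called in all 12 tested cases, where 82.9% of all genes tested were called. There were 9 rises and 3 falls with a median of 0.63, while BDNF itself overlapped between the groups. Among activators, MEF2A rose from 97.9 ± 7.9 to 239.6 ± 5.6 CPM and CREB1 by 0.75 (SE 0.04). The repressors REST and BHLHE40 rose by 1.03 (SE 0.04) and 0.95 (SE 0.03). ARNT2, the dimer partner of NPAS4, fell from 1.01 ± 0.29 to 0.382 ± 0.16 CPM, and NPAS4 was too low to test.

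NGFR was also set beside the rest of the TNF receptor superfamily, to which its product belongs. Apart from NGFR, 11 family genes rose and 6 fell among 21 tested, 81.0% called against 82.9% of all genes tested, with a median of 0.19. By mean FPKM NGFR ranked 21st of 29 family genes in the controls and 11th with PPM1G shRNA, and its log2 fold change was the highest of the 22 tested genes including NGFR. TNFRSF4, which encodes the T cell co-stimulator OX40, rose by 2.73 (SE 0.55, adjusted p = 3.7e-05, edgeR) from 8 counts over the controls to 57 over the PPM1G shRNA libraries. TNFRSF14, the herpesvirus entry mediator gene, rose from 28.8 ± 0.48 to 74.1 ± 1.8 CPM. CD40, a co-stimulatory receptor gene, and TNFRSF19 fell, with log2 fold changes of −1.37 (SE 0.14) and −1.24 (SE 0.14). The death receptor gene FAS fell by 0.70 (SE 0.04), whereas TNFRSF21, which like NGFR encodes a receptor with a death domain, rose by 0.80 (SE 0.05).

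**Figure D3:**
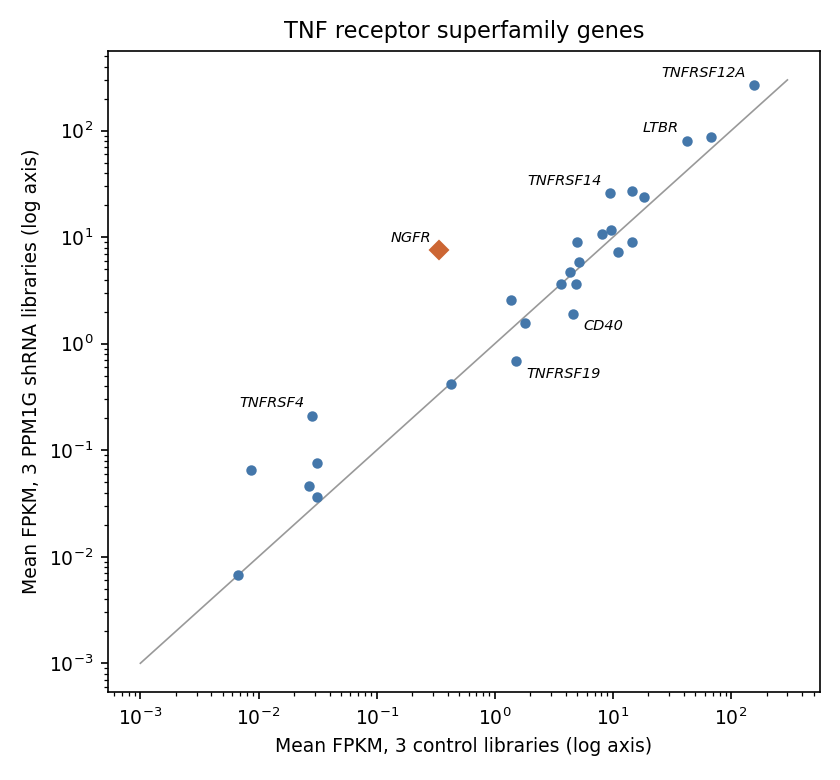
Mean FPKM of TNF receptor superfamily genes over 3 control libraries (x) and 3 PPM1G shRNA libraries (y), both log axes, for the 27 of 29 genes with a mean above 0.001 FPKM in both groups. The grey line marks equal levels, and NGFR (orange diamond, 0.338 and 7.54 FPKM) lies farthest above it.

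The genes nearest to NGFR in profile were found among 12046 genes with a mean log2 CPM of at least 0, by the root mean square difference over the 6 libraries of log2 CPM centred on each gene's mean. They were CYP1A1 (0.152), SH3TC1 (0.203), IL6 (0.249), KCP (0.268) and EEF1A2 (0.288 log2 units). The 6 libraries fall into 2 groups, so likeness here means mainly a similar fold between the groups. CYP1A1, a cytochrome P450 gene, was at 6.77, 5.42 and 6.30 CPM in the controls and at 132, 133 and 131 CPM with PPM1G shRNA, and so stood well above NGFR in level. IL6, the interleukin-6 gene, was at 0.466 ± 0.19 CPM against 10.8 ± 0.19 CPM (SD, n = 3 each). SH3TC1, KCP, which encodes a regulator of BMP signalling, and EEF1A2, a tissue-restricted elongation factor gene, had means of 0.233, 0.466 and 0.311 CPM in the controls and 4.73, 7.60 and 6.01 CPM with PPM1G shRNA.

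**Figure D4:**
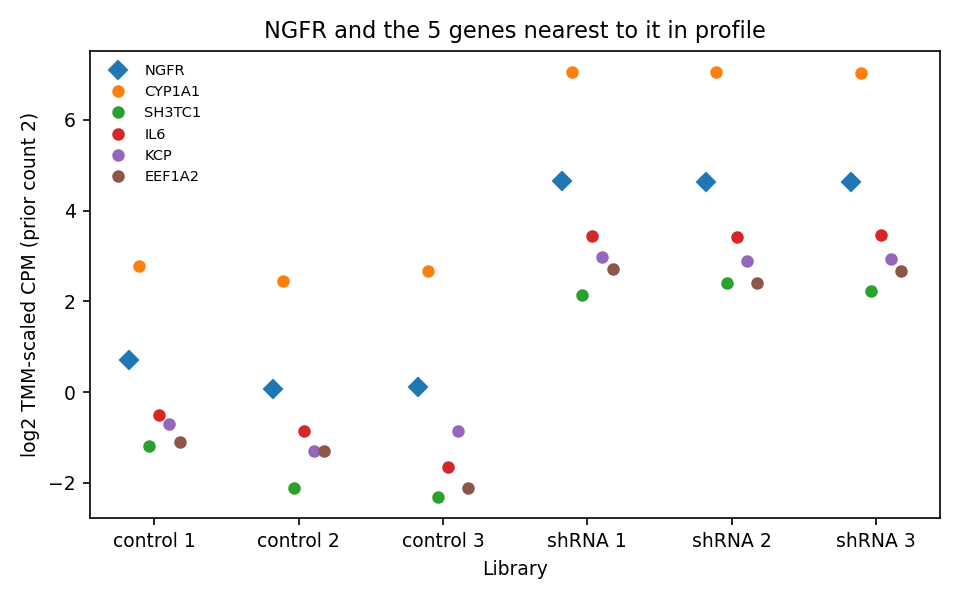
Log2 CPM (TMM-scaled, prior count 2) of NGFR and the 5 genes nearest to it in centred profile, by library. All 6 genes are low in the 3 control libraries and high in the 3 PPM1G shRNA libraries, with CYP1A1 above NGFR and the other 4 below it in every library.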

How the data were processed

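The authors deposited whole-number counts per gene, not normalized as judged from the values, and FPKM values made from the same counts with 1 length per gene and the plain library total. The submitters' processing notes name GRCh38 as genome build. Aligner, counter, annotation and strand setting: not given in the sources used here. A SMARTER mRNA kit made the libraries, per the labels.

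Groups were compared with edgeR 4.0.16 in R 4.3.3: default expression filter (minimum 10 counts), TMM scaling, robust quasi-likelihood F-test, group as the only term, Benjamini-Hochberg adjustment over 13060 genes, threshold 0.05. SEs are the absolute log2 fold change over the square root of F. The fit was tested on simulated data and found 76.0% of the 50 genes given a 1.25-fold change and 94.0% of the 50 given a 2-fold one, and 5.85% of its calls were false (12792 genes fitted). Each fold change was given to only 49 or 50 of those 12792 genes, whereas 82.9% of the 13060 genes were called in the comparison itself. How the fit performs with so large a share of genes changed was not tested. Whether replicates were separate cultures is unstated, so p-values reflect just the spread of these samples, which may be technical. Alternatives used DESeq2 1.42.0 and limma 3.58.1.

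The members and lists were chosen with earlier results of these data known. From each list up to 4 called genes with the largest change were named by rule, with PPM1G, the members, neurotrophin and Trk genes, chromosome neighbours and the 5 genes nearest to NGFR. Other genes were named after their values were seen. Gene positions come from RefSeq and transcript lengths from GENCODE 29. Some genes that the rule names are not reported here.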

Additional observations from a re-analysis of the deposited data

How the results depend on the processing

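The number of genes called over all genes, over the lists, over the KEGG pathway and among the members stayed within 1.5 times its value under each alternative run, namely other size factors, plain library totals, DESeq2, other count filters, log2(FPKM + pseudocount) with limma, the replicate block and leaving out each library. The count of genes changed by at least 2-fold, 3158, was 1648 on the log2(FPKM + 1) scale, which understates changes of low genes. On that scale the log2 fold change was 2.68 for NGFR, 0.00892 for NTRK2, −0.0266 for NTRK3, −0.123 for SORT1 and −0.563 for MAGED1. With log2(FPKM + 0.1) it was 0.0796 for NTRK2, −0.205 for NTRK3, −0.143 for SORT1 and −0.574 for MAGED1. With plain library totals, which moved the median over all genes from 0.015 to 0.115, it was −0.146 for SORT1 and −0.575 for MAGED1. NTRK3 was not called on either FPKM scale or without control replicate 3, and it was not tested where a CPM of at least 1 in 3 libraries was required, so that 3 members were then called in place of 4. With the replicate block the members' count stayed at 4, NGFR stood at 4.38 and 10805 genes were called in all, against 10821 without it. Same-numbered libraries did not deviate together (correlations 0.0142, −0.0203 and 0.00364), so the numbers were not taken to pair the samples. For the low genes NTRK2, NTRK3, NTF3 and NTF4 depth limits what can be seen.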

Other observations

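Of 12 tested genes of the GDNF and cytokine-type neurotrophic factor systems, 3 rose and 4 fell, 58.3% called against 82.9% of all genes tested. GFRA1, the co-receptor gene for glial cell line-derived neurotrophic factor (GDNF), had 563, 561 and 569 counts in the control and 31, 28 and 39 in the PPM1G shRNA libraries, and fell by 4.15 on the log2 scale (SE 0.13, adjusted p = 1.2e-23 in edgeR's quasi-likelihood test). The ligand gene GDNF itself fell less, from 50.6 ± 3.7 to 38.2 CPM, and the signalling receptor gene RET was at 0.815 ± 0.16 and 0.416 CPM. MANF, a neurotrophic factor of the endoplasmic reticulum, fell from 89.1 ± 2.6 to 27.7 ± 1.2 CPM, whereas its relative CDNF, at 0.592 ± 0.16 and 1.17 ± 0.27 CPM, rose by 0.97 (SE 0.32, adjusted p = 0.0065). LIF, a cytokine that acts through LIFR and IL6ST, rose from 84.9 ± 3.2 to 168.6 ± 2.8 CPM, while neither receptor gene passed the test (adjusted p = 0.56 and 0.49).

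The deposited annotation assigns 112 further genes to the KEGG neurotrophin signalling pathway, and 100 of them were tested. Of these 41 rose and 51 fell, 92.0% called against 82.9% of all genes tested, with a median log2 fold change of −0.10. The split depended on the scaling, with 46 rises and 47 falls under plain library totals. The survival gene BCL2 fell from 5.93 ± 0.18 to 0.546 ± 0.13 CPM and ARHGDIB, a GTPase dissociation inhibitor gene, from 218.4 ± 9.5 to 25.6 ± 1.9 CPM. Of the 112 genes, 35 also belong to the lists by role.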
